A study of Rattus norvegicus with 6 samples.

Results

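The genes described here encode carriers of amino acids and neurotransmitters. They are all gene rows whose symbol starts with Slc1a, Slc6a, Slc7a, Slc17a, Slc18a, Slc32a or Slc38a, which gave 66 of the 25629 rows in the files. By family they were 7 Slc1a, 21 Slc6a, 17 Slc7a, 7 Slc17a, 2 Slc18a, 1 Slc32a and 11 Slc38a rows. The symbol Slc6a20a stands on 2 rows with different identifiers, and Slc7a6os, a neighbour of Slc7a6 that shares its name, is not a carrier.

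Carriers in the plasma membrane end synaptic transmission by taking glutamate, GABA, glycine or monoamines back into neurons and glia, and carriers in the vesicle membrane load these transmitters for release. Others move amino acids across the blood-brain barrier, exchange glutamine between glia and neurons, or supply the building blocks of proteins. In the nucleus accumbens, the ventral striatum, the principal neurons use GABA, while glutamate and dopamine arrive in axons of cells whose nuclei lie elsewhere.

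The nuclei came from punches of both sides of the nucleus accumbens. The rats were Sprague-Dawley animals aged 90 to 120 days. Each had self-administered heroin, for 7 days at a fixed ratio of 1 and 4 days at a fixed ratio of 3, then 1 progressive ratio test on day 12 and the ratio of 3 again on days 13 and 14. After the final session they received saline or naloxone, which blocks opioid receptors, and tissue was taken 1 h later. Tissue of 12 rats (6 male, 6 female) was combined in 6 libraries, saline replicates 1 to 3 and naloxone replicates 4 to 6, each of both sexes. The labels do not say which rats went into which library, so a p-value here measures the spread between these 6 pooled libraries. Both groups had a heroin history and rats without heroin were not analysed here.

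The 6 libraries held between 55739350 and 76272798 unique molecular identifiers (UMIs, each counting 1 captured RNA molecule) in 8094 to 15020 barcodes. After filters and removal of the nuclei with the highest doublet scores 58960 nuclei were used, with library medians of 4259 to 6492 UMIs. Median mitochondrial shares were 0.152% to 0.556%, the highest in naloxone replicate 5. Any 2 libraries shared between 19 and 45 barcode sequences. Clustering, from which the transporter genes were kept out, gave 40 clusters, and 20 groups with at least 20 nuclei in every library were tested. Of these, 13 took a class name from marker genes and are called "-like", and 7 are called by their leading gene. The classes included 8338 Drd1 and 5236 Drd2 spiny neuron-like nuclei, the principal neurons of the labelled tissue. A gate that asked each single nucleus for UMIs of its own markers gave 1404 and 3670 of them the same class. It did so for 556 of 1627 eccentric (Casz1) spiny neuron-like and 195 of 914 Pvalb/Pthlh interneuron-like nuclei. The eccentric (Casz1) cluster raised 4 of its 6 markers and also 5 of the Chst9/Grm8 spiny neuron list.

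Levels are given in CPM, the UMIs of a gene per 1000000 UMIs of that class and library, as mean ± SD over the 6 libraries. Each class comes from the same 6 libraries and the same clustering, so levels are compared without a test, by the number of libraries in which the highest class lay above the next. At least 20 CPM was reached in 1 or more tested groups by 36 of the 66 rows. Among tested groups, the highest was neuronal for 11 of them and glial or vascular for 25. Of these 25, 3 had it in the unnamed Smoc2-led cluster described next. Mural-like and ependymal-like nuclei were too few to be tested and are left out of this count, though some rows were higher there. The highest tested group lay above the next in all 6 libraries for 24 of the 36 rows. The other 30 rows stayed below 20 CPM in every tested group, with highest means from 0.0692 to 19.97 CPM. They are low at this depth, and 18 rows had fewer than 100 UMIs over all nuclei used.

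**Figure D1:**
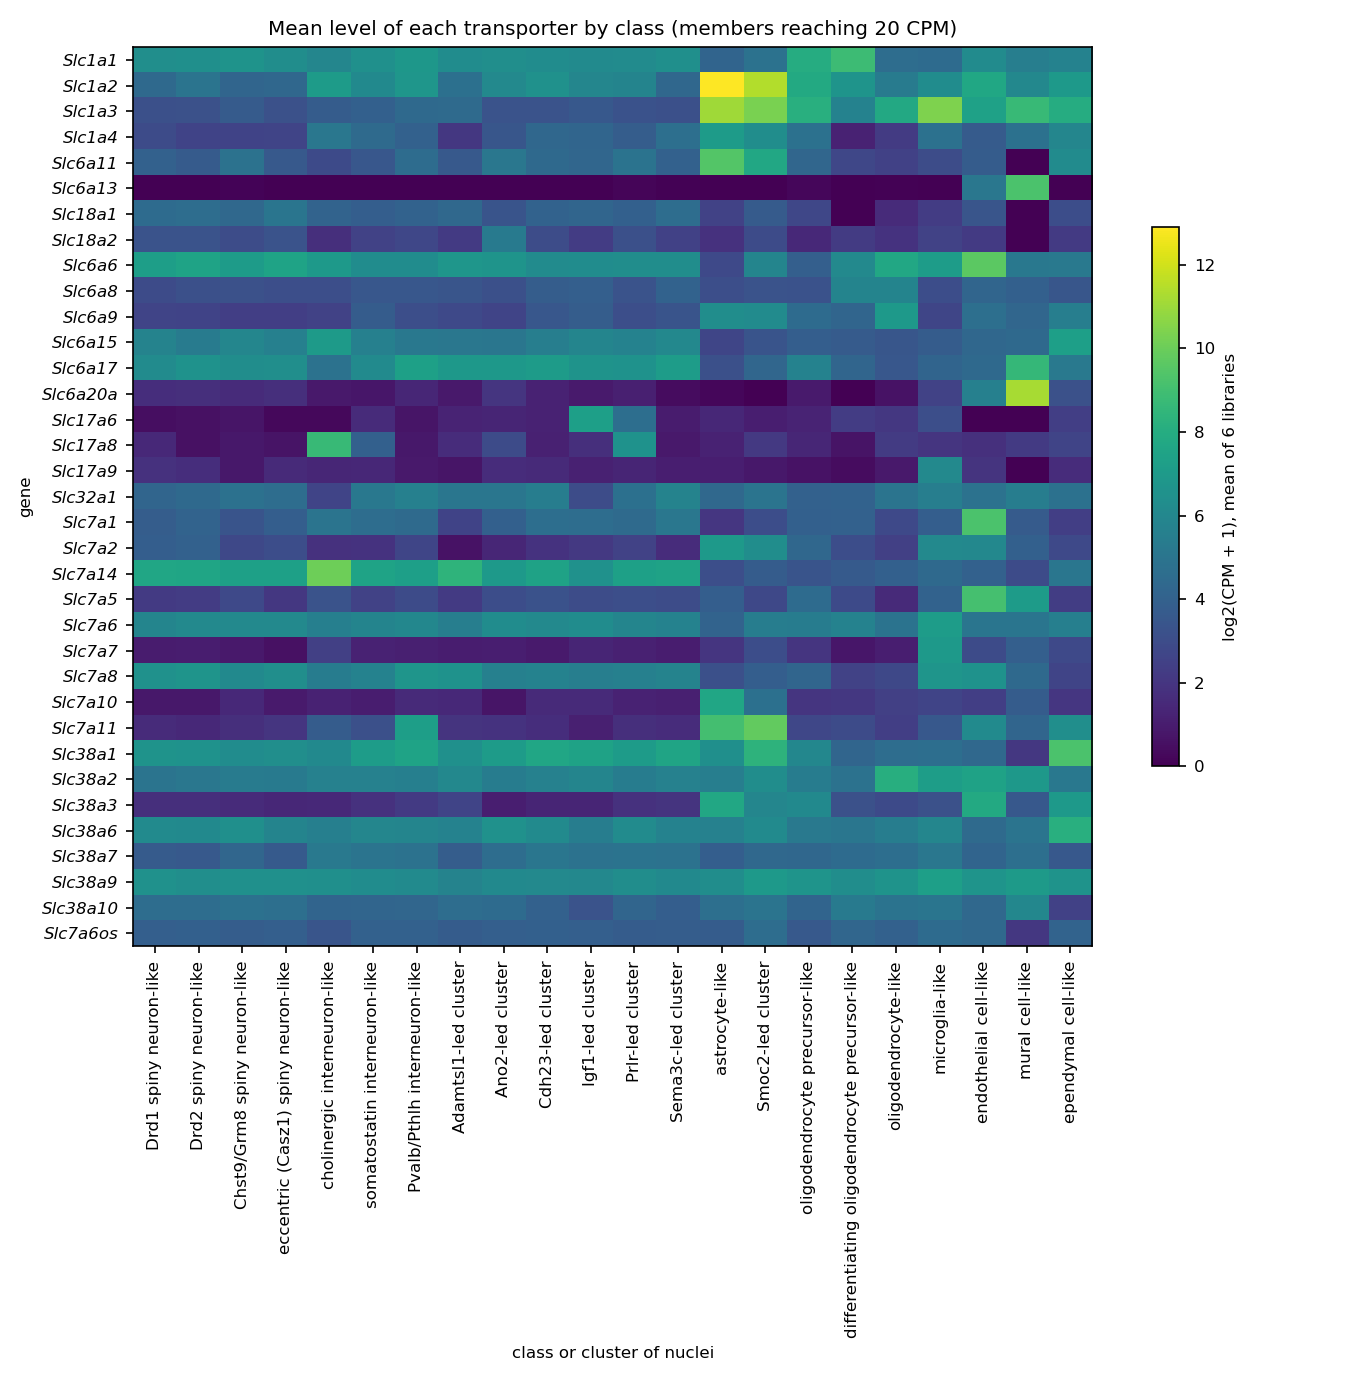
Mean level of 35 of the 36 rows that reached 20 CPM, as log2(CPM + 1) over 6 libraries (colour), in each class or cluster of nuclei (columns), with genes ordered by role. Slc1a2 and Slc1a3 were brightest in astrocyte-like nuclei, Slc7a1 and Slc7a5 stood out in endothelial-like nuclei, and Slc17a6 and Slc17a8 were bright in 1 or 2 columns.

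Transcripts of the glial glutamate carriers were highest in astrocyte-like nuclei. Slc1a2, the main glial glutamate carrier, had 6997, 7633 and 7180 CPM in the saline libraries and 8041, 8413 and 7847 CPM in the naloxone libraries (7685 ± 532 CPM). The next groups were the Smoc2-led cluster at 2727 ± 721 CPM and then oligodendrocyte precursor-like nuclei (227 CPM), and Slc1a2 was lowest in Chst9/Grm8 spiny neuron-like nuclei at 17.6 CPM. The Smoc2-led cluster (451 nuclei) raised 8 of 9 astrocyte markers but was shallow, with a median of 1429 UMIs. Its nuclei had a median of 0.295 times their library's median UMI count, against 0.487 and 0.533 times in the 2 astrocyte-like clusters. It stayed unnamed for this depth together with the absence of an astrocyte marker from its 10 leading genes, an absence that the 2 deeper astrocyte-like clusters shared. Slc1a3, the other glial glutamate carrier, was highest in astrocyte-like nuclei (2156 ± 336 CPM) and next in microglia-like nuclei (1362 ± 97.6 CPM), in all 6 libraries. The level of Slc1a3 in microglia-like nuclei ran from 1248 to 1504 CPM, far above that in Drd1 spiny neuron-like nuclei, where it was lowest (7.92 CPM). Slc1a1, the neuronal glutamate and cysteine carrier, was highest in a glial stage: 456 ± 46.8 CPM in differentiating oligodendrocyte precursor-like nuclei, 253 ± 22.5 CPM in oligodendrocyte precursor-like nuclei and 112 CPM in Pvalb/Pthlh interneuron-like nuclei. Slc1a4, an exchanger of small neutral amino acids, had 134 ± 29.98 CPM in astrocyte-like nuclei and 80.4 CPM in the Smoc2-led cluster.

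Depth differs between classes, so each nucleus was thinned to 1000 UMIs before the shares holding a UMI were compared. Thinning does not remove free RNA, which adds UMIs to nuclei that do not express a gene. For Slc1a2 the thinned share was 97.8% of astrocyte-like nuclei and 2.05% of Drd1 spiny neuron-like nuclei, which should lack it (99.2% and 15.9% unthinned). For Slc1a3 it was 83.5% in astrocyte-like, 68.0% in microglia-like and 0.857% in Drd1 spiny neuron-like nuclei. The median depth was 2456 UMIs in astrocyte-like, 1272 UMIs in microglia-like and 8980 UMIs in Drd1 spiny neuron-like nuclei. Thinning left out 4.76% of astrocyte-like and 31.3% of microglia-like nuclei.

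Slc6a11, a GABA carrier of astrocytes, was also highest in astrocyte-like nuclei. It had 708.5 ± 149 CPM in astrocyte-like nuclei and 211 CPM in the Smoc2-led cluster, against 4.68 CPM in oligodendrocyte-like nuclei. Slc6a13, a GABA and taurine carrier, was present outside the neural classes: 605 ± 236 CPM in mural-like nuclei, 33.4 ± 29.8 CPM in endothelial-like nuclei and at most 0.163 CPM in any other tested group. Mural-like (158) and ependymal-like (200) nuclei had fewer than 20 nuclei in at least 1 library and enter no test.

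The astrocyte-like class was made of 2 clusters whose carriers differed. Cluster 24 (3396 nuclei, led by Gramd2b and Gldc) held more Slc1a2 than cluster 26 (1182 nuclei, led by Itih3 and Lama2), at 9185 against 3916 CPM. Cluster 24 was also higher in Slc38a1 (103 against 40.2 CPM), Slc7a11 (634 against 256 CPM), Slc1a4 (149.8 against 91.1 CPM) and Slc1a3 (2269 against 1873 CPM). Cluster 26 was higher in Slc6a11 (1563 against 374 CPM), Slc6a9 (129 against 59.4 CPM) and Slc7a10 (253.5 against 181 CPM). Each of these orders held in 6 of 6 libraries. No test is given, since the clusters were cut from the same nuclei.

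**Figure D2:**
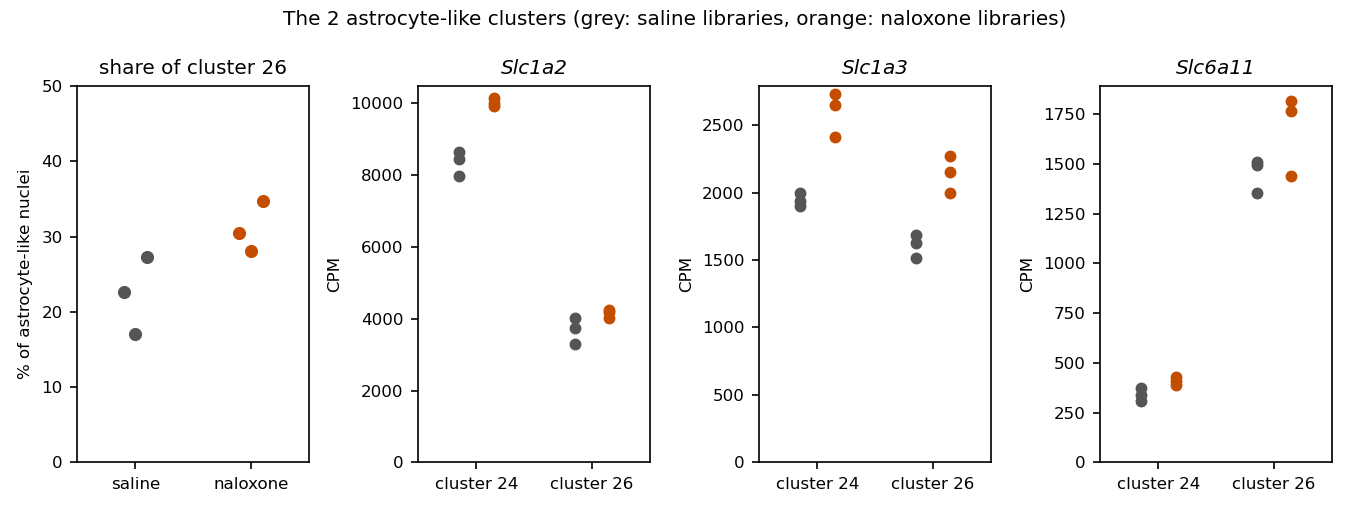
The 2 clusters of astrocyte-like nuclei: left, the share of cluster 26 among astrocyte-like nuclei (percent); right, CPM of 3 carriers in each cluster, 1 point per library (grey saline, orange naloxone). Slc1a2 lay near 9185 CPM in cluster 24 and 3916 CPM in cluster 26, and Slc6a11 the other way, near 374 and 1563 CPM.

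Vesicular glutamate carriers separated the neuronal groups. Slc17a8, a vesicular glutamate carrier known from striatal cholinergic neurons, had 417.5, 416 and 320 CPM after saline and 264, 587 and 512 CPM after naloxone in cholinergic interneuron-like nuclei (419 ± 119 CPM). Next came the Prlr-led cluster at 94.6 ± 17.9 CPM and somatostatin interneuron-like nuclei at 14.5 CPM, and the thinned share with a Slc17a8 UMI was 30.7%, 7.65% and 1.40% in these groups. Slc17a6, the vesicular glutamate carrier of subcortical neurons, was at 155 ± 20.8 CPM in the Igf1-led cluster and 24.3 ± 9.17 CPM in the Prlr-led cluster, with no other tested group above 7.63 CPM. Slc17a7, that of cortical neurons, had 196 UMIs in all, of which 129 lay in the Prlr-led cluster, where saline replicate 3 (9.50 CPM) and naloxone replicate 5 (14.4 CPM) were the highest libraries. Saline replicates 1 and 2 had 0 Slc17a7 UMIs there, which allows up to 0.843 and 0.717 CPM (3 UMIs of each library's total in the cluster, counting error only).

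Slc32a1, which loads GABA and glycine into vesicles, was spread over many groups. It was highest in the Sema3c-led cluster (54.6 ± 7.67 CPM) and Pvalb/Pthlh interneuron-like nuclei (48.4 ± 9.88 CPM), at 20.3 ± 3.37 CPM in Drd2 and 17.6 ± 2.20 CPM in Drd1 spiny neuron-like nuclei, and lowest in cholinergic interneuron-like nuclei (5.29 CPM). In microglia-like nuclei Slc32a1 stood at 45.5 ± 20.2 CPM on 96 UMIs, from 24.3 to 74.3 CPM. The thinned share with a Slc32a1 UMI was 4.87% there, 4.76% in Pvalb/Pthlh interneuron-like and 0.610% in cholinergic interneuron-like nuclei. Slc32a1 also had means of 23.7 to 52.0 CPM in the 4 oligodendrocyte-like clusters, and 20.8 and 16.7 CPM in astrocyte-like clusters 24 and 26. Free RNA as its source in microglia-like or other glial nuclei was not tested. Slc17a9, the vesicular nucleotide carrier, was a microglial gene in these nuclei, at 65.4 ± 25.3 CPM against 2.86 CPM in the next group.

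Monoamine carriers were low. Slc18a1, a vesicular monoamine carrier better known from endocrine cells, was highest in eccentric (Casz1) spiny neuron-like nuclei (31.8 ± 9.44 CPM), then in the Sema3c-led cluster (23.9 CPM), Drd2 (23.7 CPM) and Drd1 spiny neuron-like nuclei (22.02 CPM), against 1.96 CPM in oligodendrocyte-like nuclei. It had 0 UMIs in differentiating oligodendrocyte precursor-like nuclei, which allows up to 1.51 CPM over the group (3 UMIs of its total, counting error only). The 3 lower of these levels lay within 1 SD of each other. Slc18a2, the vesicular carrier of dopamine neurons, was highest in the Ano2-led cluster at 37.3 ± 10.1 CPM, against 8.99 CPM in Drd1 spiny neuron-like nuclei. The plasma membrane carriers of noradrenaline, dopamine and serotonin, Slc6a2, Slc6a3 and Slc6a4, had 20, 12 and 70 UMIs over all nuclei used.

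Carriers of glycine, taurine, creatine and proline divided between oligodendrocyte-lineage, vascular and neuronal nuclei. Slc6a6, the taurine carrier, had 800.1 ± 193 CPM in endothelial-like, 213 ± 41.1 CPM in oligodendrocyte-like and 180 CPM in Drd2 spiny neuron-like nuclei, and 6.30 CPM in astrocyte-like nuclei, its lowest group. Slc6a9, a glycine carrier, had 123 ± 15.2 CPM in oligodendrocyte-like and 78.5 ± 9.17 CPM in astrocyte-like nuclei. Slc6a8, the creatine carrier, had 56.1 ± 6.44 CPM in oligodendrocyte-like and 55.4 ± 21.4 CPM in differentiating oligodendrocyte precursor-like nuclei, higher in the first in 3 of 6 libraries. Slc6a20a, a proline carrier, reached 2346 ± 610 CPM in mural-like nuclei and 49.1 ± 53.5 CPM in endothelial-like nuclei; its second row had 270 UMIs in all. Slc6a15, a neutral amino acid carrier of neurons, had 129 ± 37.2 CPM in cholinergic interneuron-like nuclei and 64.5 CPM in the Sema3c-led cluster. Slc6a17, a vesicular carrier of neutral amino acids, had 159 ± 11.9 CPM in Pvalb/Pthlh interneuron-like nuclei and 386 ± 153 CPM in mural-like nuclei.

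Slc7a5 and Slc7a1, carriers of large neutral and of cationic amino acids, were highest in endothelial-like nuclei. Slc7a5, which brings large neutral amino acids and levodopa across the blood-brain barrier, had 550.5 ± 91.5 CPM in endothelial-like nuclei, 135 CPM in mural-like nuclei and, in oligodendrocyte precursor-like nuclei, 22.2 CPM. Slc7a1, the arginine and lysine carrier, had 603 ± 185 CPM in endothelial-like nuclei and 33.5 CPM in the next group, the Sema3c-led cluster. Slc3a2, the heavy chain that Slc7a5 and its relatives need, was also highest in endothelial-like nuclei, at 183 ± 87.0 CPM, with 132 CPM in astrocyte-like nuclei. The endothelial-like class rests on 317 nuclei, 29 to 82 per library.

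The other Slc7 genes were divided by class. Slc7a14, a lysosomal member of the cationic group, was neuronal, at 1051 ± 153 CPM in cholinergic interneuron-like nuclei and 331 CPM in the Adamtsl1-led cluster. Slc7a2, another cationic carrier, had 125 ± 19.8 CPM and Slc7a10, a carrier of serine and other small neutral amino acids, 201 ± 15.2 CPM in astrocyte-like nuclei. Slc7a11, which exchanges cystine for glutamate, was highest in the Smoc2-led cluster (900.4 ± 207 CPM), then in astrocyte-like (530.0 ± 178.5 CPM) and Pvalb/Pthlh interneuron-like nuclei (148 CPM). Slc7a7 and Slc7a6, light chains that export cationic amino acids, were highest in microglia-like nuclei, at 123 ± 49.3 CPM and 140 ± 17.4 CPM, and the next group had 7.24 CPM of Slc7a7 and 77.7 CPM of Slc7a6. Slc7a8, a light chain for neutral amino acids, had like levels in Pvalb/Pthlh interneuron-like (106 CPM), microglia-like (105 CPM) and Drd2 spiny neuron-like nuclei (102 CPM). Slc7a6os reached 23.7 CPM in the Smoc2-led cluster, and whether the counting used strand is not given in the sources used here, so it and Slc7a6 cannot be told apart with certainty.

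Among the sodium-coupled carriers of glutamine and other neutral amino acids, Slc38a2 was highest in oligodendrocyte-like nuclei (270 ± 37.9 CPM) and next in endothelial-like nuclei (173 CPM). Slc38a3, which moves glutamine out of astrocytes, had 226 ± 86.7 CPM in endothelial-like and 211.5 ± 42.0 CPM in astrocyte-like nuclei, and the first was higher in 2 of 6 libraries. Slc38a1, which takes glutamine into neurons, had 322 ± 99.9 CPM in the Smoc2-led cluster, 197 CPM in the Cdh23-led cluster and 608 ± 110 CPM in ependymal-like nuclei. Slc38a6 had 92.2 ± 9.57 CPM in the Ano2-led cluster and 282 ± 85.6 CPM in ependymal-like nuclei. Slc38a9, a lysosomal arginine sensor, was present in every tested group, from 54.6 CPM in the Adamtsl1-led cluster to 155 ± 28.7 CPM in microglia-like nuclei. Slc38a7 had 36.0 ± 3.43 CPM in cholinergic interneuron-like and 33.5 ± 10.9 CPM in microglia-like nuclei, and Slc38a10 had 39.5 ± 13.5 CPM in differentiating oligodendrocyte precursor-like and 31.8 ± 8.87 CPM in microglia-like nuclei. In each pair the means lay within 1 SD of each other. The first class was higher in 3 of 6 libraries for Slc38a7 and in 5 of 6 for Slc38a10.

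Over the 13 named classes, genes outside the list with the most similar level pattern were found by Pearson's r of log2(CPM + 1) class means; the classes share libraries and clustering, so r is a description. Slc1a2 was most like Rorb (r = 0.951), Plcd4 (0.946) and Pgm1 (0.938), and Rorb is also an astrocyte marker of the naming lists. Slc7a5 was most like Plscr3 (0.975), Atp13a5 (0.962) and Lgals9 (0.961). Slc17a8 was most like Rec114 (0.929), Nr1h4 (0.919) and Ecel1 (0.913), the last a cholinergic marker of the naming lists. Slc18a1 was most like Prrt2 (0.969), Arhgap18 (0.954) and Mmd (0.952).

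Naloxone was then compared with saline within each group, to ask which carriers differed 1 h after the antagonist. The UMIs were summed per library and group, and edgeR's quasi-likelihood test was fitted over all genes with Benjamini-Hochberg adjustment. Over 20 groups, 480 tests of 45 rows gave 4 calls at an adjusted p under 0.05, and 15 rows passed the filter on low counts in no fit. Drd2 spiny neuron-like nuclei had 2 calls among 35 rows, where 0.708% of all 12577 genes were called. Astrocyte-like nuclei had 1 of 28 rows (1% of 10999 genes) and oligodendrocyte-like nuclei 1 of 31 rows (0.917% of 11343 genes). The median log2 change of the rows was -0.0017, 0.19 and 0.050 in these classes, against 0.0011, 0.0011 and -0.0041 for all genes. In the other 17 groups edgeR called 0 of 386 rows, with 42 at an unadjusted p under 0.05 and 1 called by DESeq2 (Slc18a1 in Drd1 spiny neuron-like nuclei).

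At an unadjusted p under 0.05 there were 7 rows in Drd2 spiny neuron-like nuclei (13.4% of genes), 9 in astrocyte-like nuclei (11.4%) and 5 in oligodendrocyte-like nuclei (11.4%). For the groups with no call, the share of all genes called and then the rows and the share of genes at an unadjusted p under 0.05 follow. Drd1 spiny neuron-like nuclei had 0 of 41 rows called (0.241%) and 6 at the unadjusted threshold (13.5%). Chst9/Grm8 spiny neuron-like nuclei had 0 of 30 (0.0432%) and 5 (9.39%), and eccentric (Casz1) spiny neuron-like nuclei 0 of 27 (0.0285%) and 5 (8.57%). The Drd1 share of rows at the unadjusted threshold was near that of all genes, and the other 2 lay above it, with no call. Among interneuron-like nuclei the counts were 0 of 27 (0.0431%) and 3 (7.75%) for Pvalb/Pthlh, 0 of 19 (0.0137%) and 3 (6.7%) for somatostatin and 0 of 19 (0%) and 1 (4.7%) for cholinergic. Among neuronal clusters they were 0 of 30 (0.0539%) and 5 (7.64%) for the Sema3c-led, 0 of 38 (0.0966%) and 3 (9.39%) for the Prlr-led, 0 of 29 (0.0946%) and 3 (6.95%) for the Ano2-led, 0 of 28 (0.049%) and 0 (7.25%) for the Cdh23-led, 0 of 21 (0%) and 1 (7%) for the Adamtsl1-led and 0 of 16 (0%) and 0 (4.78%) for the Igf1-led cluster. Among glial and vascular groups they were 0 of 25 (0.294%) and 1 (8.13%) for oligodendrocyte precursor-like, 0 of 9 (0.151%) and 2 (9.2%) for differentiating oligodendrocyte precursor-like, 0 of 13 (0.284%) and 2 (7.98%) for microglia-like and 0 of 7 (0%) and 0 (5.21%) for endothelial-like nuclei, and 0 of 7 (0.195%) and 2 (6.57%) for the Smoc2-led cluster.

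In astrocyte-like nuclei Slc1a3 (ENSRNOG00000016163), the glutamate carrier, rose from 1848, 1878 and 1862 CPM to 2272, 2562 and 2514 CPM. The groups did not overlap, and the saline libraries lay close together. The log2 change was 0.43 ± 0.082 (SE), with an adjusted p of 0.0222 by edgeR. The thinned share of nuclei with a Slc1a3 UMI was 80.1% to 81.1% after saline and 84.2% to 87.7% after naloxone. The 9 astrocyte markers summed to 5437 to 5877 CPM after saline and 5825 to 6337 CPM after naloxone. Leaving out saline replicate 1, 2 or 3 or naloxone replicate 6 gave an adjusted p of 0.164, 0.0776, 0.112 or 0.0791. With adjustment over all groups it was 0.0536. The sums of 2 other marker lists did not overlap in these nuclei and were higher after naloxone, microglia (69.5 to 73.9 CPM, then 82.6 to 111 CPM) and somatostatin interneurons (12.7 to 19.8 CPM, then 22.1 to 23.4 CPM). Their part in the result was not tested.

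The make-up of the astrocyte-like class differed between the treatments, which is given as a description. Cluster 26 held 22.7%, 17.0% and 27.2% of its nuclei after saline and 30.45%, 28.1% and 34.75% after naloxone, ranges that do not overlap. Within cluster 24 Slc1a3 had a log2 change of 0.45 (adjusted p 0.0210), and within cluster 26, where it is lower, 0.44 (adjusted p 0.0592), by edgeR. Slc1a2, also lower in cluster 26, had 0.30 within cluster 24 (7974, 8438 and 8641 CPM to 9924, 10132 and 10003 CPM, adjusted p 0.0591). Its change within cluster 26 was 0.19 (adjusted p 0.585 by edgeR). Slc6a11, higher in cluster 26, had a log2 change of 0.50 in the whole class (609, 499.8 and 680.0 CPM to 732, 803 and 927 CPM, adjusted p 0.0756) but 0.29 and 0.22 within the clusters (adjusted p 0.303 and 0.598). Slc38a2 had a change of -0.64 in the class (63.0, 52.9 and 49.9 CPM to 33.6, 36.2 and 33.5 CPM, adjusted p 0.0571) and of -0.57 and -0.74 within the clusters (adjusted p 0.169 and 0.430). The part of the cluster shares in these results was not tested beyond these values.

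In Drd2 spiny neuron-like nuclei Slc18a1 (ENSRNOG00000011992), the vesicular monoamine carrier, fell and Slc7a1 (ENSRNOG00000000924), the arginine carrier, rose. Slc18a1 had 25.1, 30.1 and 33.2 CPM after saline and 20.3, 16.6 and 16.7 CPM after naloxone, with no overlap. It fell by 0.72 on the log2 scale (SE 0.13, adjusted p 0.0278 by edgeR). Slc7a1 had 9.62, 15.01 and 8.72 CPM after saline and 17.6, 25.4 and 20.5 CPM after naloxone, with no overlap. Its log2 change was 0.94 ± 0.19 (SE), with an adjusted p of 0.0447 by edgeR. Thinned to 1000 UMIs, 2.37%, 2.95% and 3.11% of nuclei held a Slc18a1 UMI after saline and 1.93%, 1.61% and 1.58% after naloxone. For Slc7a1 these shares were 0.994%, 1.496% and 0.830%, then 1.72%, 2.43% and 1.93%.

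Each of these calls was lost when single libraries were left out, with adjustment over all groups (adjusted p 0.0555 for Slc18a1 and 0.0921 for Slc7a1 by edgeR) and in nuclei gated one by one on their markers (0.0690 and 0.134). That of Slc7a1 was also lost at a clustering resolution of 0.5 (adjusted p 0.0520). For Slc18a1 the adjusted p was 0.133 without saline replicate 2, 0.161 without saline replicate 3, and with naloxone replicate 5 or 6 left out it was 0.0749 or 0.0768. For Slc7a1 it was 0.169 without saline replicate 1, 0.222 without saline replicate 3, and with naloxone replicate 5 or 6 left out it was 0.121 or 0.0892. The 7 Drd2 class markers summed to 809 to 832 CPM after saline and 808 to 887 CPM after naloxone. Of 18 marker lists, 4 had sums that did not overlap between the treatments in these nuclei. With 3 libraries on each side some lists can fail to overlap by chance, and this was not tested. The 4 markers of neurons in general were higher after naloxone, at 7279 to 7449 CPM and then 7705 to 8109 CPM. The sums of 3 lists were lower after naloxone: the 6 markers of eccentric (Casz1) spiny neurons (610.5 to 697 CPM, then 566 to 575 CPM), the 8 mural markers (19.2 to 21.8 CPM, then 16.9 to 18.5 CPM) and the 9 glutamatergic markers (58.0 to 65.1 CPM, then 36.2 to 45.55 CPM). Slc18a1 is itself highest in eccentric (Casz1) spiny neuron-like nuclei. The part of these lists in the results was not tested.

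**Figure D3:**
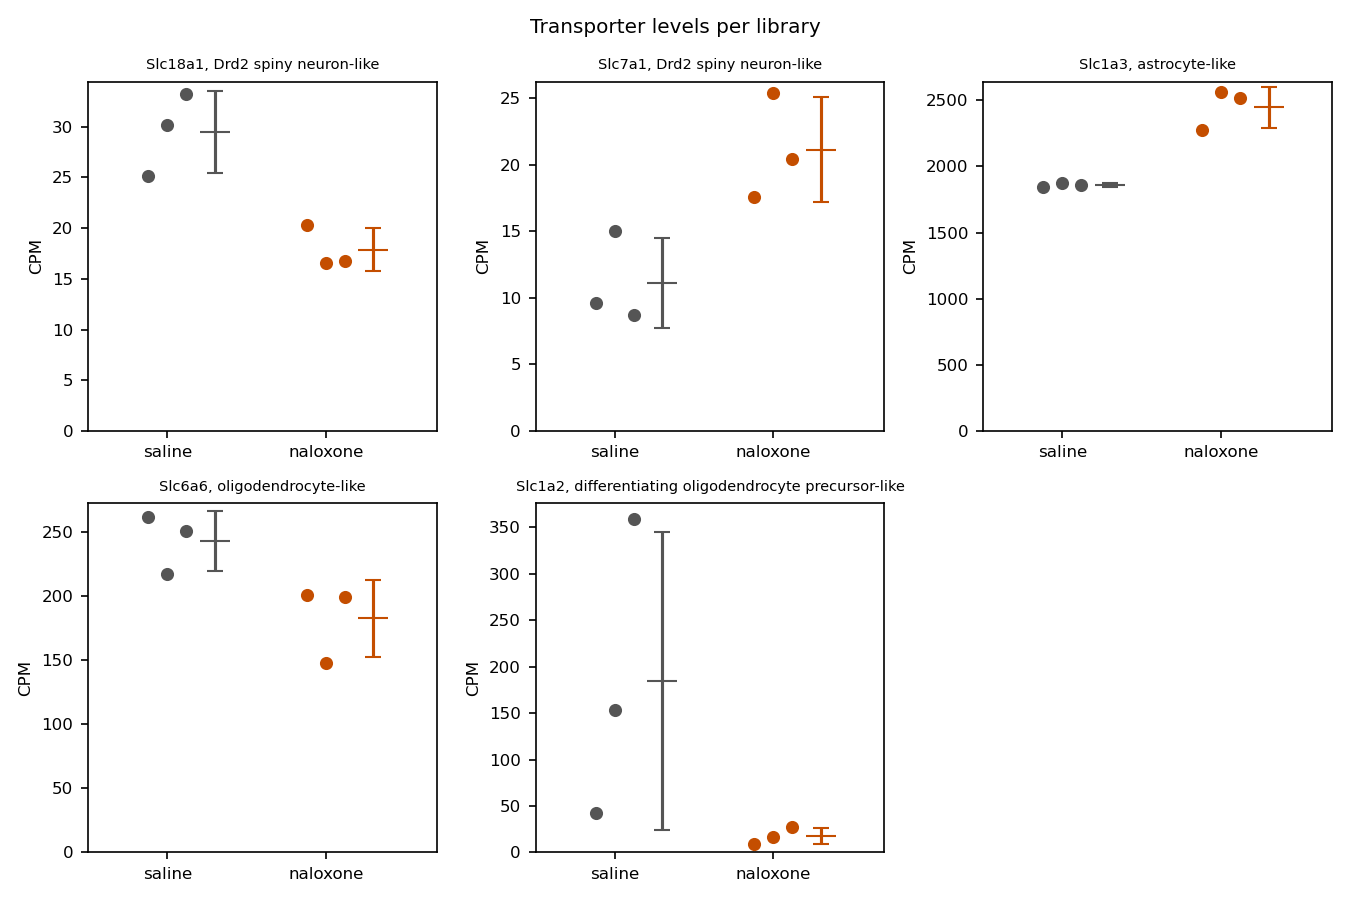
CPM of 5 carriers in the named class, 1 point per library (grey saline, orange naloxone), with the mean ± SD of the 3 libraries beside them. In each panel the saline and naloxone points do not overlap. The panels were picked because these same libraries gave a call, within the class or in the fit over all groups, so the lack of overlap adds no support. How many of all genes show no overlap was not counted. The saline points of Slc1a2 in differentiating oligodendrocyte precursor-like nuclei ran from 42.2 to 359 CPM.

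Slc18a1 lay lower after naloxone in each of the 12 groups in which it could be tested, with log2 changes from -1.17 to -0.18, an unadjusted p under 0.05 in 6 and a call in 1. These groups come from the same 6 libraries and are not independent. In Drd1 spiny neuron-like nuclei it had 25.8, 25.7 and 27.0 CPM after saline and 19.5, 16.4 and 17.7 CPM after naloxone (log2 change -0.56, adjusted p 0.0545). The log2 change was -0.56 in Chst9/Grm8 and -0.58 in eccentric (Casz1) spiny neuron-like nuclei, -0.60 in the Sema3c-led cluster and -1.17 in cholinergic interneuron-like nuclei, which held 62 of its UMIs. Over all nuclei, where fewer nuclei of a class and less RNA per nucleus cannot be told apart, it had 20.2, 21.8 and 23.2 CPM after saline and 15.3, 14.0 and 14.0 CPM after naloxone (log2 change -0.60 ± 0.078, adjusted p 0.0528 by edgeR). The related carrier Slc18a2 had a log2 change of 0.57 in Drd1 spiny neuron-like nuclei (7.07, 8.51 and 6.10 CPM to 9.40, 12.6 and 10.3 CPM, adjusted p 0.174).

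**Figure D4:**
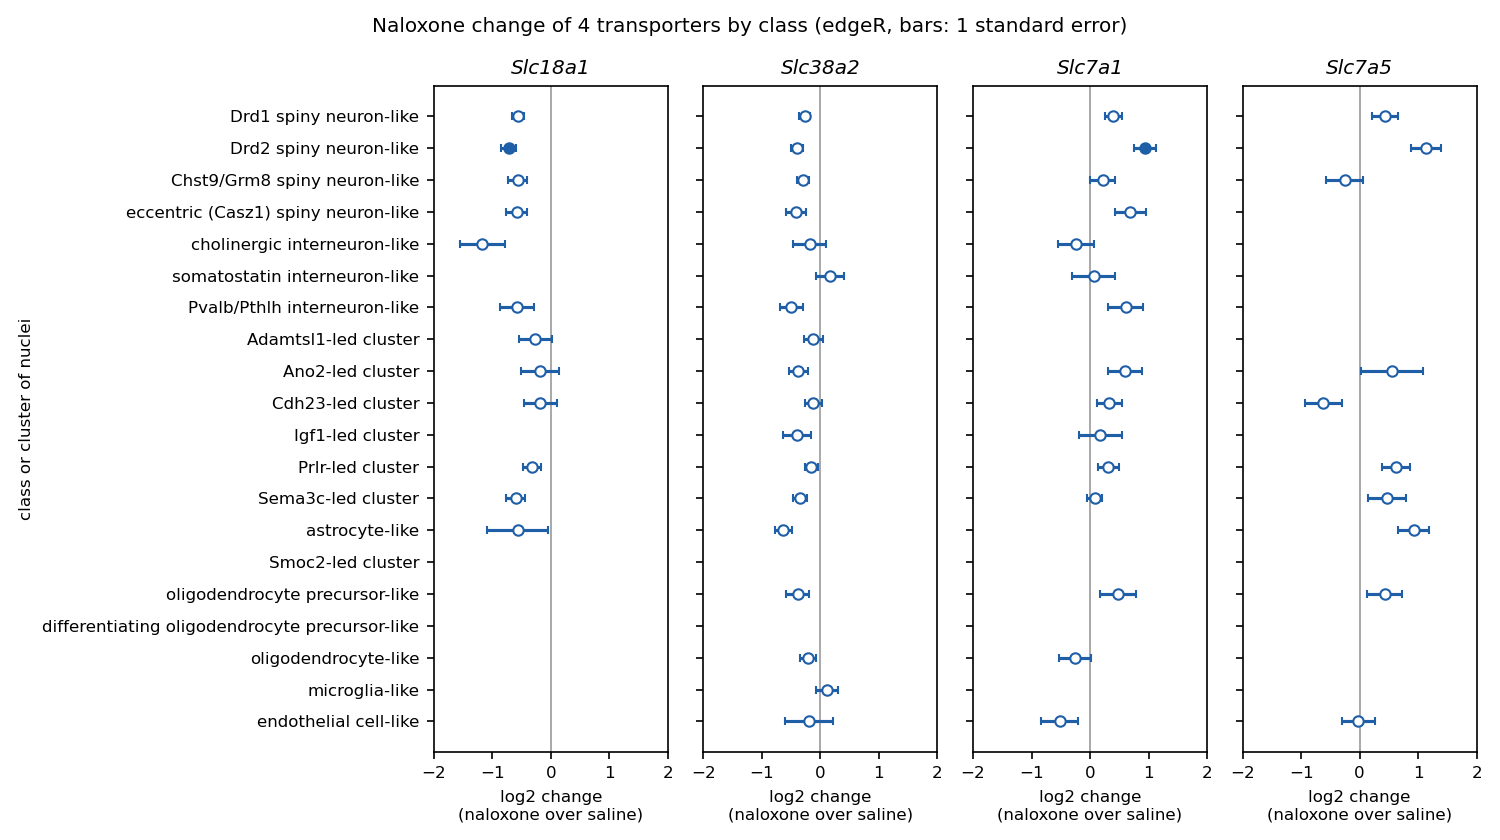
Log2 change of naloxone over saline (points, bars 1 standard error) of Slc18a1, Slc38a2, Slc7a1 and Slc7a5 in each tested class or cluster (rows). Filled points have an adjusted p under 0.05 (Slc18a1 and Slc7a1 in Drd2 spiny neuron-like nuclei), and all 12 points of Slc18a1 lie left of 0.

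Over all nuclei edgeR called 0 of 51 rows (0.0404% of 17342 genes were called). At an unadjusted p under 0.05 there were 12 rows, 8 higher and 4 lower, where 14.1% of all genes passed, and DESeq2 called 5: Slc18a1, Slc7a1, Slc7a5, Slc7a11 and Slc6a11. Slc7a11, the cystine-glutamate exchanger, had a log2 change of -0.48 over all nuclei (38.7, 33.4 and 32.8 CPM to 26.45, 21.4 and 27.45 CPM, adjusted p 0.170 by edgeR). Slc7a5 had a log2 change of 0.47 over all nuclei (adjusted p 0.131).

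Slc7a1, Slc7a5 and Slc38a2 supply amino acids to protein synthesis and are textbook targets of the amino acid response, a programme driven by the transcription factor Atf4. They were picked for this known role and are shown with the 250 bases before their start. Each of the 3 is among the 3 smallest p-values of more than 1 fit, but so are other carriers not shown, such as Slc18a1, Slc6a17 and Slc1a2. For Slc7a1 these fits were Drd2 spiny neuron-like and endothelial-like nuclei, with changes in opposite directions. Sequences are from RefSeq (assembly GRCr8, not the build of the counts) and were matched by symbol, as were 48 of the 66 rows. Both strands were searched for the cyclic AMP response element TGACGTCA, its core TGACG, the C/EBP-ATF element TGATGNAA and the E-box CACGTG, and matches are in capitals. Slc7a1 is at chr12:11664238-11664487 (plus strand), Slc7a5 at chr19:66872413-66872662 (minus strand) and Slc38a2 at chr7:129742620-129742869 (minus strand).
Slc7a1: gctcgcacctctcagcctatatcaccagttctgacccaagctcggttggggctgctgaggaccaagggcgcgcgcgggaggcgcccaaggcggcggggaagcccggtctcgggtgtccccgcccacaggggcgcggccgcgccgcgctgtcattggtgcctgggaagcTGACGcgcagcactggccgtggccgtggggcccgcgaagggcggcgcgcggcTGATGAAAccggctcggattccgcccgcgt
Slc7a5: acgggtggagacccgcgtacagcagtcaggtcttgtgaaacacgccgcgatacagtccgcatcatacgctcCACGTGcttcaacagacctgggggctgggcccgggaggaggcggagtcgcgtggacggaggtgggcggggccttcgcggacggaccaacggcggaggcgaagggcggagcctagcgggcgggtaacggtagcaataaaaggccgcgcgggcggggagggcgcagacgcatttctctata
Slc38a2: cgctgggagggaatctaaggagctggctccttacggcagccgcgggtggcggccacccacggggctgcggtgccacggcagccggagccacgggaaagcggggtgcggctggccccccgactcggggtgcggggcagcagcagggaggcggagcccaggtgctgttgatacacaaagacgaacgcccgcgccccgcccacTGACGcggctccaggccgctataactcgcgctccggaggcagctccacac
The Slc7a1 window held the core from base -82 and the C/EBP-ATF element as TGATGAAA from base -30, counted from the start. That of Slc7a5 held an E-box from base -179 and that of Slc38a2 the core from base -50. Of 33469 promoters, 18.2% held the core, 3.4% the C/EBP-ATF element, 5.59% the E-box and 1.59% the full element in the same window. These are letter matches, not sites of binding. The window leaves out all sequence after the start, so an element there or further upstream would not be seen.

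Slc7a5 had 2.44, 2.88 and 2.10 CPM after saline and 4.17, 6.87 and 4.84 CPM after naloxone in Drd2 spiny neuron-like nuclei, on 184 UMIs (log2 change 1.13 ± 0.26, adjusted p 0.0677 by edgeR). The groups did not overlap. Its log2 change was 0.62 in the Prlr-led cluster and -0.62 in the Cdh23-led cluster. In endothelial-like nuclei, where it is highest, it was -0.027 ± 0.28, and the change of Slc7a1 there was -0.52 ± 0.31 (618, 722 and 805 CPM to 371, 383 and 720.1 CPM). Slc38a2 had a negative log2 change in 16 of 18 groups and a positive one in 2, from -0.64 to 0.17, with an unadjusted p under 0.05 in 8 and no call. Its log2 change was -0.50 in Pvalb/Pthlh interneuron-like, -0.39 in oligodendrocyte precursor-like and -0.30 in Chst9/Grm8 spiny neuron-like nuclei. In the Igf1-led, Ano2-led and Sema3c-led clusters it was -0.40, -0.38 and -0.35, and in endothelial-like nuclei -0.19.

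Of the 14 genes listed for the amino acid response, 10 were tested in Drd2 spiny neuron-like nuclei and 1 was called, where 0.708% of all genes were called. It was Aldh1l2, a mitochondrial folate enzyme, which rose from 3.30, 2.88 and 3.47 CPM to 6.085, 6.62 and 7.19 CPM (log2 change 1.07, adjusted p 0.0353 by edgeR). In oligodendrocyte-like nuclei 1 of 7 tested was called, where 0.917% of all genes were called. It was Ddit4, a stress-induced inhibitor of growth signalling, which rose from 17.6, 26.4 and 19.9 CPM to 55.6, 113 and 72.5 CPM (log2 change 1.87, adjusted p 0.00127 by edgeR). No other gene of this list was called in either class. Of the 19 genes of transmitter synthesis and breakdown, 18 are in the files, 16 were tested in Drd2 spiny neuron-like nuclei and 1 was called there. It was Ddc, which makes dopamine and serotonin from their amino acids, at a log2 change of 0.47 (adjusted p 0.0447 by edgeR). Of 12 partners of the carriers 11 were tested in the same nuclei and 1 was called, the synaptic vesicle protein Sv2b. It fell by 0.54 on the log2 scale (adjusted p 0.0447 by edgeR). Sv2b is also 1 of 9 glutamatergic markers, and it made up most of their sum in these nuclei, at 60.2 of 61.6 CPM after saline and 40.8 of 42.2 CPM after naloxone. In the other groups edgeR called none of the 3 lists' genes.

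The remaining carriers with small p-values did not pass the adjustment. Among glutamate carriers, Slc1a2 and Slc1a3 had log2 changes of 0.57 and 0.48 in the Smoc2-led cluster (Slc1a2 at 2371, 2359 and 1900.2 CPM, then 2707, 3970 and 3056 CPM, with no overlap). Slc1a3 had a change of -0.90 in differentiating oligodendrocyte precursor-like nuclei and 0.40 in endothelial-like nuclei. Slc1a2 had -0.38 in the Igf1-led cluster and -0.66 in microglia-like nuclei, and Slc1a4 had -0.90 in somatostatin interneuron-like nuclei. Slc38a1 had 0.45 in the Smoc2-led cluster.

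Among carriers of GABA and vesicular carriers, Slc6a11 had a log2 change of 0.40 in Chst9/Grm8 and 0.39 in Drd1 spiny neuron-like nuclei, with no overlap in either. Slc32a1 had 0.55 in the Adamtsl1-led cluster, and Slc17a8 had 1.51 in the Ano2-led cluster on 75 UMIs. Slc17a4, a low-level member of the Slc17 family, had -1.11 in Pvalb/Pthlh interneuron-like nuclei on 83 UMIs.

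Among neutral amino acid carriers, Slc6a17 had log2 changes of -0.63 in somatostatin interneuron-like nuclei (93.8, 77.3 and 88.3 CPM to 41.1, 64.0 and 56.9 CPM), -0.42 in oligodendrocyte precursor-like nuclei, -0.22 in the Sema3c-led cluster and 0.21 in the Prlr-led cluster. Slc6a15 had 0.44 in cholinergic interneuron-like and 0.36 in eccentric (Casz1) spiny neuron-like nuclei. Slc38a6 had 0.59 in somatostatin interneuron-like nuclei and -0.20 in the Prlr-led cluster. Slc38a9 had 0.31 in eccentric (Casz1) spiny neuron-like, 0.32 in differentiating oligodendrocyte precursor-like and 0.24 in oligodendrocyte precursor-like nuclei, and -0.31 in the Adamtsl1-led cluster, where Slc38a7 had -0.58.

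Among Slc7 carriers, Slc7a14 had a log2 change of 0.32 in cholinergic interneuron-like nuclei, its highest class (934.5, 989.5 and 894 CPM to 1005, 1233 and 1250.2 CPM, no overlap), and 0.16 in the Cdh23-led cluster. Slc7a7 had -0.71 in microglia-like nuclei, its highest class (204, 127 and 135 CPM to 118.5, 53.4 and 98.5 CPM, no overlap). Slc7a6 had -0.21 in the Cdh23-led and -0.47 in the Igf1-led cluster, and Slc7a8 had 0.34 in the Ano2-led cluster. Slc6a6, the taurine carrier, had -0.45 in microglia-like nuclei (144, 163 and 172.5 CPM to 138, 86.0 and 126 CPM, no overlap).

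Whether a change in 1 group differed from that in the others was tested in 1 fit over all 20 groups with library as a block, as the effect in the group minus the mean effect in the other 19. The fit has 1 spread per gene for all 20 groups, so its p-values do not measure the spread within the named group alone. Of 42 rows in this fit of 14549 genes, 3 were called in a total of 2 groups. In oligodendrocyte-like nuclei, where 0.715% of genes were called, Slc6a6 had a difference of -0.48 on the log2 scale (adjusted p 0.00942 by edgeR). Slc6a6 had 262, 217 and 251 CPM after saline and 201, 148 and 199.5 CPM after naloxone there, with no overlap. Its own change of -0.41 (SE 0.14) was not called (adjusted p 0.263 by edgeR), and the SE of the difference was 0.11. In these nuclei the sums of 5 of 18 marker lists did not overlap. Those of oligodendrocytes (14233 to 15216 CPM, then 15476 to 16231 CPM), their precursors, their differentiating precursors and somatostatin interneurons were higher after naloxone, and that of mural cells was lower (16.0 to 18.8 CPM, then 10.65 to 15.2 CPM). Their part in the result was not tested. The difference of Slc6a6 was not called without saline replicate 1 (adjusted p 0.176), saline replicate 3 (0.0855) or naloxone replicate 5 (0.424). Slc38a1 had an own change of 0.59 and a difference of 0.71 in the same nuclei (adjusted p 0.0712). The differences of Slc7a1 in Drd2 spiny neuron-like (0.70, adjusted p 0.193) and endothelial-like nuclei (-0.89, adjusted p 0.135) were not called, nor was any difference of Slc18a1 or Slc1a3. In the 18 groups without a member called, 0% to 0.344% of genes were called, with 0.275% in Drd2 spiny neuron-like and 0.00687% in Drd1 spiny neuron-like nuclei and the Igf1-led and Sema3c-led clusters.

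In differentiating oligodendrocyte precursor-like nuclei (0.983% of genes called) the change of Slc1a2 minus that of the other groups was -3.70 (adjusted p 8.69e-06 by edgeR). It had 42.2, 153 and 359 CPM after saline and 9.18, 16.7 and 27.0 CPM after naloxone, with an own log2 change of -3.52 ± 0.66 (adjusted p 0.051). The groups did not overlap, but few nuclei carry the value. The saline libraries held 11, 42 and 170 UMIs, of which 9, 29 and 75 lay in 1 nucleus each, and the naloxone libraries 4, 4 and 8 UMIs. The thinned share of nuclei with a Slc1a2 UMI was 2.30%, 6.73% and 5.55% after saline and 1.11%, 1.499% and 5.10% after naloxone, which overlap. Without saline replicate 3 the difference was -2.38 (adjusted p 0.0520). The own change was called in 7 of 13 alternative settings, with log2 changes from -4.01 to -0.35. The last was in nuclei gated one by one on their markers (adjusted p 0.960 by edgeR). The 9 astrocyte markers summed to 69.0, 106 and 203 CPM in the saline libraries and 59.7, 87.5 and 128 CPM in the naloxone libraries. The 4 markers of neurons in general summed to 706, 601 and 872 CPM, then 482, 496 and 364 CPM, with no overlap. The sums of the cholinergic interneuron list (23.2 to 30.7 CPM, then 10.1 to 18.4 CPM) and the mural list (14.8 to 34.5 CPM, then 8.33 to 13.8 CPM) were also lower without overlap. Their part in the result was not tested.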

How the data were processed

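Single-nucleus RNA was measured with the 10x GEM-X 3′ v4 kit in 6 libraries. The authors deposited raw UMI counts per gene and barcode, made with Cell Ranger 9.0.1 per the file headers and the submitters' processing notes, which name the build mRatBN7.2. The labels give 44592 nuclei, and the files hold 64260 barcodes.

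Nuclei needed 500 genes and a mitochondrial share of no more than 5% (61609 passed). Those with the highest scrublet doublet scores were removed, at a preset rate of 0.4% per 1000 nuclei of each library (2649, or 4.30%). The 58960 others were clustered with scanpy 1.11.5 and leidenalg 0.10.2 on 3000 variable genes, 40 components, 15 neighbours and a resolution of 1. The transporter genes were kept out of the genes used for clustering. Classes were named from marker lists. The 7290 nuclei left out of the classes were those of mixed or small clusters and single nuclei with neuronal RNA in non-neuronal clusters. The latter had more than 30 UMIs of the 4 markers of neurons in general per 10000 UMIs. The endothelial-like cluster lost 94 of 411 nuclei in this way and the ependymal-like cluster 62 of 262. The thresholds for naming, and the removal of nuclei for neuronal RNA, were set after the clusters were seen. Members and lists were chosen with earlier results of these data known.

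UMI counts were summed per library and group and tested in R 4.3.3 with edgeR 4.0.16 (quasi-likelihood test, low counts filtered by its default rule, TMM factors, Benjamini-Hochberg adjustment over all genes of a fit). Groups needed 20 nuclei in every library. CPM were computed here. The fit over 20 groups used edgeR's quasi-likelihood dispersion with no separate trended estimate, and library as a block. Shares of nuclei were also computed after thinning to 1000 UMIs. The text names every transporter with a level of at least 20 CPM, and the 3 with the smallest p in each fit, except 1 that enters the counts but is not reported here by name or value. Alternatives were DESeq2 1.42.0, RLE factors, no filter, a minimum of 1000 genes per nucleus, single libraries left out in turn, a doublet rate of 0.8% per 1000 nuclei, a resolution of 0.5, nuclei gated one by one, and adjustment over all groups. The split of astrocyte-like nuclei by cluster was added after seeing the data.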

Additional observations from a re-analysis of the deposited data

Results flagged for a closer look

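In the 2 results given here the change after naloxone in 1 class differed from the mean change in the other 19 groups, by the fit over all groups. That fit has 1 spread per gene for all groups. Within its own class neither change was called (adjusted p 0.051 for Slc1a2 and 0.263 for Slc6a6 by edgeR). The own change of Slc1a2 depended on the processing and was called in 7 of 13 alternatives, that of Slc6a6 in 1 of 14. Slc1a2 in differentiating oligodendrocyte precursor-like nuclei had a difference of -3.70 on the log2 scale, which was not called without saline replicate 3 (-2.38, adjusted p 0.0520 by edgeR). Slc6a6 in oligodendrocyte-like nuclei had a difference of -0.48, which was not called once saline replicate 1 or 3, or naloxone replicate 5, was left out.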

How the results depend on the processing

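Of the 480 tests within groups, 4 gave a call. The number was 14 with no filter on low counts, 2 with nuclei gated one by one, 1 with adjustment over all groups and between 0 (without saline replicate 3) and 6 (without naloxone replicate 5) when 1 library was left out. With adjustment over all groups the calls of Slc18a1, Slc7a1 and Slc1a3 were all lost, and with gated nuclei those of Slc18a1 and Slc7a1. Without saline replicate 1 or naloxone replicate 6 the number of calls was 2. DESeq2 gave 6 calls and RLE factors 5. Over all nuclei the count of 0 became 5 with DESeq2, 1 with no filter, 1 with more doublets removed and 0 to 2 with 1 library left out (2 without naloxone replicate 5). The 3 differences between groups became 4 with DESeq2 and 1 to 3 with 1 library left out (1 without saline replicate 3). The cause was not tested for any of these. No alternative took the 4 calls or the 3 differences to the opposite direction. Of the uncalled changes, 3 turned direction: Slc1a3 in differentiating oligodendrocyte precursor-like nuclei (0.034 with gated nuclei), Slc1a2 in microglia-like nuclei (0.17 with gated nuclei, and -1.13 to 0.75 with 1 library left out) and Slc38a2 in endothelial-like nuclei (-0.45 to 0.039 with 1 library left out). The tested named class with the highest level stayed the same for 31 to 36 of the 36 rows under these alternatives. DESeq2 gave no adjusted p for 3 changes, which were left out. No paired analysis was possible because the saline and naloxone libraries share no replicate number. Depth limits the low genes and the small classes: 18 rows had fewer than 100 UMIs, and the endothelial-like class had 29 nuclei in its smallest library.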
